A study of Mus musculus with 12 samples.

Results

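The genes described here are 150 protein-coding genes whose mean level was higher in tumours given anti-B7-H3 and anti-PD1 together than in tumours given either antibody alone or an isotype control. Each gene's reads were divided by the reads of its library and are given as RPM, reads per 1000000 library reads, leaving 12 satellite-like genes, predicted genes that resemble satellite repeats, out of the library total. For every protein-coding gene with 60 or more reads over the 3 combination libraries, the score was the lowest of the 3 log2 ratios of the combination mean to another group's mean, after adding 1 RPM to each. The 150 highest scores were taken from 10669 genes that reached the read minimum, out of 22195 genes in the files. The genes were thus chosen by their measured levels in all 12 libraries, so the excess in the combination is a description of how the genes were chosen and is given without a test.

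The libraries came from C57BL/6J mice, which have an intact immune system, carrying subcutaneous allografts of the mouse melanoma line YUMM 2.1. Antibody treatment began when tumours measured 20 to 50 mm3, and the 4 groups were isotype control IgG, anti-B7-H3, anti-PD1, and anti-B7-H3 plus anti-PD1, with 3 libraries each. No genotype of the mice or engineered allele of the line is given beyond these names, all groups carry the same line, and the labels do not say that each library is a mouse of its own. The p-values below therefore measure the spread between these libraries, which may hold no variation between mice. Among genes that reached the read minimum, the median ratio of highest to lowest combination library was 1.17, at a median of 341 combination reads. How much of that spread is counting error was not tested. B7-H3 (Cd276) and PD-1 (Pdcd1) are surface proteins that restrain immune responses, and the study set out to describe immune cells in the dissected tumours.

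The library groups differed in ways that touch these genes. Satellite-like genes took 90.3 to 93.7% of gene reads in the isotype control, 68.7 to 74.5% with anti-PD1, 30.1 to 34.0% in the combination and 0.0944 to 0.222% with anti-B7-H3. Reads outside them numbered 1340782 to 1512937, 2530099 to 2793362, 2902813 to 3493133 and 3570258 to 3918163 in the same order. Chemoreceptor genes (1491 odorant, vomeronasal and taste receptor genes, used mainly in sensory tissue) had 7.03 to 8.0 reads per kilobase of coding sequence in the isotype control, 5.13 to 5.54 with anti-PD1, 0.662 to 0.788 in the combination and 0.0850 to 0.0997 with anti-B7-H3. That rate times a gene's coding length is called its background below. Pigment cell genes, known markers of melanoma, were low: the 9 melanocyte genes listed summed to 38.2 to 48.7 RPM in the combination and 78.7 to 108 in the isotype control. In the isotype control their 377 reads compare with a background of 309, and 3 of the 9 were at 0 with anti-B7-H3.

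As background, skeletal muscle shortens when myosin heads in the thick filament pull on actin in the thin filament. Calcium released inside the fibre binds troponin C and moves tropomyosin off the actin, and a calcium pump ends the contraction. Type I interferon acts through its receptor, STAT proteins and interferon regulatory factors to switch on antiviral genes such as the Ifit, Mx and Isg15 families, which are commonly induced in inflamed tumours. Both of these programmes were represented among the 150 genes, together with many genes that belong to neither.

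The genes with the largest excess were those of fast-twitch muscle. Myh4, the fast IIB myosin heavy chain, headed the list with a score of 2.56, which is 5.91 times the next highest group after adding 1 RPM. Tnnt3, the fast troponin T, scored 2.39, and Acta1, the skeletal muscle actin, 2.06. These were the 3 genes with a score of 2 or more. A score of 1 or more was reached by 22 genes, the gene at rank 10 had 2.73 times the next group and the gene at rank 50 had 1.51 times. The median over all 150 was 1.45 times, so most of the genes carried a small excess.

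**Figure D1:**
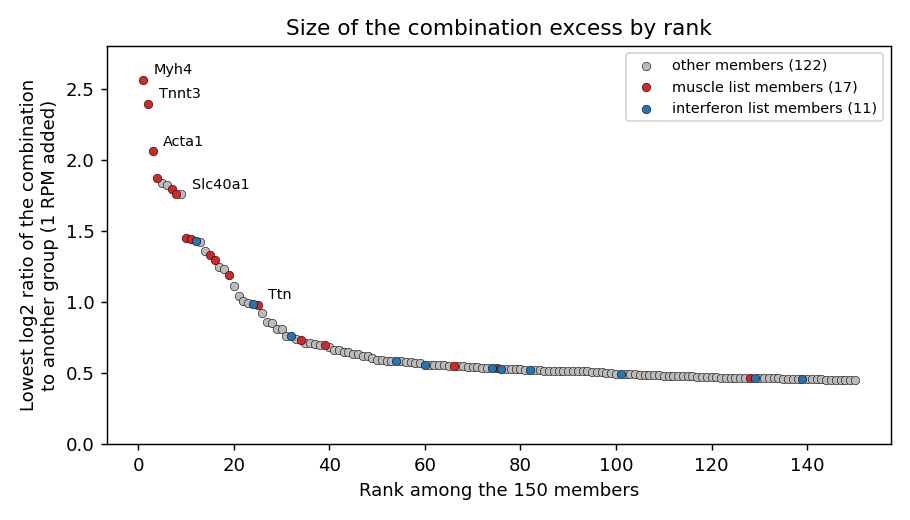
Lowest log2 ratio of the combination mean to another group's mean (vertical axis, 1 RPM added) against rank for the 150 genes; each point is a gene, coloured by whether it is on a muscle list, on the interferon list or on neither. The curve falls from 2.56 at Myh4 to 1.0 at rank 22 and then runs nearly flat to 0.45 at rank 150.

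The limit at 150 did not fall at a step in the scores. Thoc2, Pkp2 and Mdm2 were the last genes inside, with scores of 0.45, 0.45 and 0.45, and Higd1a, Tbc1d8b and Otud6b were the first outside, with 0.45, 0.45 and 0.44. Mdm2, the ligase that targets p53 for destruction, had 117, 124 and 117 RPM in the combination libraries and a mean of 87.2 with anti-B7-H3. Of the 10669 genes, 3797 (35.6%) had a score above 0, that is, their highest mean in the combination; on TMM-scaled totals, which equate libraries on the bulk of their genes, the number was 1940 (18.2%) and with DESeq2 size factors 1700 (15.9%).

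Group means hide the libraries, so each gene was also checked for overlap. In 126 of the 150 genes the lowest combination library lay above all 9 other libraries, against 1246 of the 10669 genes (11.7%); since the rule used these levels, nothing is read from the difference. When the rule was applied to 2 libraries of each group and the genes it chose were looked up in the libraries left out, 112, 115 and 123 of 150 were highest in the left-out combination library (74.7, 76.7 and 82.0%). Among all genes the rule could take, the same shares were 34.1, 36.0 and 34.9%. The 3 selections shared 102, 99 and 108 genes with the 150. Libraries of a group were alike in their share of satellite-like reads, so a left-out library carries any bias of its group. Nothing about the cause or size of the excess is read from these shares.

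Membership depended on how libraries were scaled. TMM scaling lowered the level of the combination relative to the isotype control by 0.81 log2 units compared with the totals used by the rule, by 0.22 relative to anti-PD1 and by 0.04 relative to anti-B7-H3. On TMM-scaled totals 134 of the 150 genes were still highest in the combination, and the other 16, among them Ifit1, Ifit2, Ifit3b, Ankrd1, Ankrd23, Csn3 and Fez1, were highest in the isotype control. Choosing 150 genes afresh on that scale gave 94 of the same genes. Subtracting each gene's background left all 150 highest in the combination, and a fresh choice then gave 75 of the same genes. Background was at most 6.71% of any member's combination reads, and its rate was far higher in the isotype control and with anti-PD1. That all 150 stayed highest was thus nearly fixed in advance, and nothing is read from it. The number chosen under all 3 scalings was 51, of which 14 were on muscle lists and 3 on the interferon list.

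**Figure D2:**
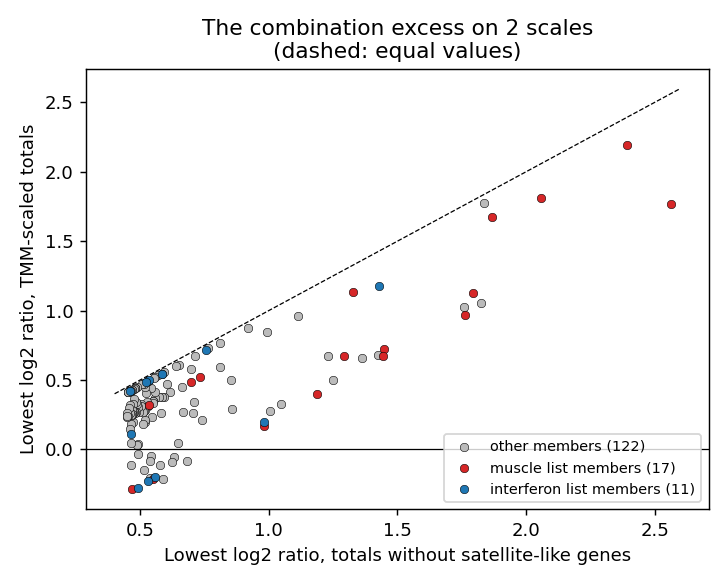
Score of each of the 150 genes on TMM-scaled totals (vertical axis) against its score on the totals used to choose it (horizontal axis), both as log2 ratios; the dashed line marks equal values and the solid line a TMM score of 0. The 16 points below the solid line were highest in the isotype control on the TMM scale, and Tnnt3, Myh4 and Acta1 stayed far above it.

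The muscle genes were taken from 4 lists with 97 genes in all: contractile proteins, sarcomere scaffold, excitation and calcium handling, and muscle energy metabolism. Of these, 41 had 60 or more combination reads and 17 were among the 150. The contractile list supplied 10 of its 27 genes (Acta1, Myh1, Myh4, Mylpf, Myl1, Tnnt3, Tnni2, Tnnc2, Tpm1 and Ttn), the scaffold list 3 of 26 (Des, Ankrd1 and Ankrd23), the calcium list 2 of 22 (Atp2a1 and Dysf) and the energy list 2 of 22 (Ckm and Eno3). Together the 17 genes, chosen for their excess in the combination, summed to 1759 ± 15.6 RPM (SD, n = 3) in the combination, 730 ± 12.3 with anti-PD1, 699 ± 23.0 in the isotype control and 320 ± 6.80 with anti-B7-H3. After background was subtracted the sums of the group means were 1740, 485, 164 and 317 in the same order, so that the isotype control sum then came lowest. Much of the anti-B7-H3 sum was Tpm1 (162 RPM) and Dysf (73.2), at 97.4 and 19.7 in the isotype control. Acta1 and Ckm stayed lower with anti-B7-H3 (0.085 and 0.350) than in the isotype control (8.79 and 5.24). Of 14 genes that edgeR called lower with anti-B7-H3, 6 stayed lower and 7 turned, as given below. In bulk tissue, fewer cells of a type and less RNA per cell cannot be told apart.

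Myh4 lies at chromosome 11, 67238029 to 67260446 (GRCm38, GENCODE M21, ENSMUSG00000057003.12) and its neighbour Myh1, the fast IIX heavy chain, at chromosome 11, 67200052 to 67224575. Myh4 stood at 144, 141 and 148 RPM in the combination libraries, 22, 20.1 and 28.7 in the isotype control, 21.5, 27.4 and 21.5 with anti-PD1, and 0 in all 3 anti-B7-H3 libraries. The combination libraries were far above the rest, which overlapped between isotype control and anti-PD1. In reads, the isotype control had 99.6 over its 3 libraries against a background of 129, and anti-PD1 had 188 against 92.7, whereas the combination had 1373 against 12.4. With 0 reads in the anti-B7-H3 group, a floor of 3 reads over the group was used. Counting all reads, Myh4 was at least 539-fold higher in the combination than with anti-B7-H3. For anti-PD1 the same floor gave 87.6-fold, which is no lower limit for reads above background. After background subtraction the mean of Myh4 was 12.65 RPM with anti-PD1 and 144.1 in the combination. Myh1 was likewise highest in the combination, with 59.5, 67.8 and 54.9 RPM in the combination, 28.6, 24.3 and 19.7 with anti-PD1, 25.3, 20.4 and 19.1 in the isotype control and 0, 0 and 0.542 with anti-B7-H3.

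The promoters of Myh4 and Acta1 are shown because these genes are the muscle members at ranks 1 and 3 and move together. Each is 160 bases before the RefSeq start on GRCm38.p6, read on the gene's strand; capitals mark TATAAA and the SRF CArG box, the site of serum response factor. Myh4 is chr11:67237652-67237811 on the plus strand and Acta1 is chr8:123894776-123894935 on the minus strand.
Myh4: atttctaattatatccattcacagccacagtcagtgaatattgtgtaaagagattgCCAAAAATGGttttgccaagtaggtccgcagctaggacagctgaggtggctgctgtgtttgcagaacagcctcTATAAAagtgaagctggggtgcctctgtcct
Acta1: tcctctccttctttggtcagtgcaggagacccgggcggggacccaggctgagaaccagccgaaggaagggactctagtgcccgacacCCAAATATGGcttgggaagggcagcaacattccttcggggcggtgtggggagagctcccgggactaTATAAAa

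The thin filament genes showed the same picture at their own levels. Acta1 (chromosome 8, 123891769 to 123894751) had 86.5, 79.3 and 93.2 RPM in the combination, 17.9, 23.4 and 18.6 with anti-PD1, 10.6, 16.4 and 13.1 in the isotype control and 0, 0.286 and 0 with anti-B7-H3. Its combination libraries did not overlap any other, and 1 read in all came from the anti-B7-H3 group, giving a ratio of 970 between combination and anti-B7-H3 with a counting interval of 174 to 38300. Tnnt3, which anchors troponin to tropomyosin, had 24.6, 19.3 and 20.9 in the combination and 2.15, 2.61 and 5.14 with anti-PD1. Tnnt3 had 1.32, 0 and 2.91 in the isotype control, where its 6.0 reads compare with a background of 18.2, and 0.255, 0.28 and 0 with anti-B7-H3. Tnnc2, the calcium-binding fast troponin C, had 13.9, 16.5 and 13.2 in the combination, 2.86, 3.73 and 3.16 with anti-PD1, 0, 2.24 and 2.91 in the isotype control and 0 in all 3 anti-B7-H3 libraries. Tnni2, the inhibitory subunit, had 12.4, 13.4 and 13.7 in the combination and at most 4.37 in any other library. All 3 fast troponin subunits were among the genes chosen, at 12.4 to 24.6 RPM in the combination and at most 5.14 elsewhere.

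Tpm1, a tropomyosin made in many cell types as well as in muscle, behaved differently from the fast isoforms. It had 262, 263 and 266 RPM in the combination, 159.7, 166 and 161 with anti-B7-H3, 158, 177 and 148 with anti-PD1 and 92.6, 89.5 and 79.4 in the isotype control. The anti-B7-H3 libraries were therefore well covered for Tpm1, whereas 10 of the 17 muscle genes had under 1 RPM there. In RPM per kilobase of coding sequence in the combination, Tpm1 stood at 269 ± 1.78 (SD, n = 3), Acta1 at 76.1 ± 6.14, Tnnc2 at 30.1 ± 3.67 and Myh4 at 24.8 ± 0.613. On this length-adjusted scale the genes below Tnnc2 lay close together, with Tnnt3, Ckm, Eno3, Myh4, Mylpf, Tnni2, Atp2a1, Des and Myl1 between 20.6 and 26.4, a range in which neighbours differed by less than their spread. Ttn was lowest at 7.75 ± 0.0782.

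Ttn encodes titin, the spring that spans the sarcomere and the longest coding sequence of the 17. It had 830.0, 823 and 814 RPM in the combination, 446, 391 and 413 in the isotype control, 332, 326 and 358 with anti-PD1 and 44.7, 42.3 and 39.5 with anti-B7-H3. The isotype control reads, 1765 in all, were below the 2360.0 that the chemoreceptor rate would give over this length, while the 7801 combination reads compare with a background of 227. Atp2a1, the calcium pump of fast fibres, had 72, 63.4 and 63 in the combination, 16.5, 22.4 and 17.5 in the isotype control, 16.1, 14.2 and 11.5 with anti-PD1 and 0, 0.56 and 0.542 with anti-B7-H3. Ckm, the muscle creatine kinase that buffers ATP, had 30.1, 33.4 and 26.9 in the combination, 9.91, 11.9 and 9.47 in the isotype control, 4.3, 7.47 and 4.35 with anti-PD1 and 0, 0.84 and 0.271 with anti-B7-H3. For each of these 3 genes the combination libraries lay above every other library and the anti-B7-H3 libraries lay below every other.

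**Figure D3:**
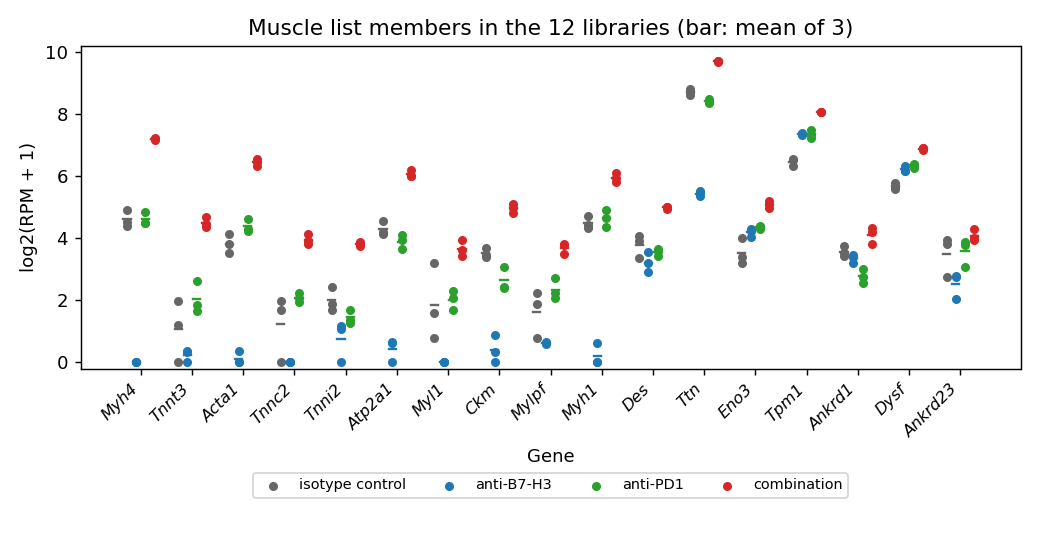
Level of the 17 muscle list genes in each of the 12 libraries, as log2(RPM + 1); each dot is a library, each short bar the mean of 3, and colours mark the 4 groups. The combination dots lie above all others for each of the 17 genes, and for genes such as Myh4, Acta1, Tnnc2 and Myl1 the anti-B7-H3 dots lie at or near 0 while Tpm1, Dysf and Eno3 are well above 0 in all groups.

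The rule capped the other 3 groups below the combination but did not use their order, which could be tested. With edgeR's quasi-likelihood test on all 12 libraries and Benjamini-Hochberg adjustment over 13478 genes, 14 of the 17 muscle genes were lower with anti-B7-H3 than with anti-PD1 and 0 were higher, at an adjusted p under 0.05. Over all genes tested, 31.6% were lower and 30.4% higher in that comparison. Ttn gave a log2 fold change of -3.18 ± 0.06 (SE), adjusted p = 4.95e-52, Atp2a1 -5.29 ± 0.40 (SE), adjusted p = 4.59e-19, and Ckm -3.91 ± 0.53 (SE), adjusted p = 1.19e-09 by edgeR. The 3 anti-B7-H3 libraries were below the 3 anti-PD1 libraries in each case. The 14 included Tpm1, which was 0.17 lower on the log2 scale after TMM scaling but about equal on library totals. The Tpm1 call ended without anti-B7-H3 replicate 1 or 3, anti-PD1 replicate 2, or combination replicate 1 or 3 (adjusted p = 0.0586 to 0.175), with no filter on low counts (-0.022, adjusted p = 0.789) and with satellite-like genes left out (-0.12, adjusted p = 0.0899). The call of Des, the filament protein desmin, ended with DESeq2's Wald test (adjusted p = 0.0715), with no filter on low counts (edgeR adjusted p = 0.151), with satellite-like genes left out (0.0658) and without anti-B7-H3 replicate 2 or 3, anti-PD1 replicate 1 or 3, or any combination library (edgeR adjusted p = 0.0585 to 0.223). On group means after background subtraction 13 of the 14 kept their direction, and Dysf, a membrane repair protein, turned.

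Against the isotype control, 14 of the 17 muscle genes were lower with anti-B7-H3 and 0 higher, where 33.3% and 30.8% of all genes were, and the 14 kept their direction on library totals. On group means after background subtraction 6 of the 14 were still lower with anti-B7-H3, Myh4 was at 0 in both groups, and 7 (Tnnt3, Tnni2, Mylpf, Myh1, Des, Ttn and Ankrd1) were higher with anti-B7-H3 than in the isotype control. With anti-PD1, 6 were lower (Myh4, Atp2a1, Ckm, Des, Ttn and Ankrd1) and 1, Tpm1, was higher, against 20.9% and 17.5% of all genes. Ttn with anti-PD1 differed from the isotype control by -0.89 ± 0.05 (SE), adjusted p = 2.43e-23 by edgeR on the log2 scale, but after background subtraction Ttn stood at 0 RPM in the isotype control, 135 with anti-PD1 and 39.6 with anti-B7-H3. Of the 6 genes lower with anti-PD1, Myh4, Atp2a1 and Des turned as well, and Ckm and Ankrd1 did not. The Myh4 call for anti-PD1 against isotype control, -0.59 ± 0.19 (SE), adjusted p = 0.00856 by edgeR, ended without isotype control replicate 3 (log2 fold change -0.43, adjusted p = 0.12) and with satellite-like genes left out (-0.41, adjusted p = 0.0541). The Tpm1 call ended without isotype control replicate 3 (0.24, adjusted p = 0.0586) or anti-PD1 replicate 2 (0.21, adjusted p = 0.0723). The Tnnt3 call for anti-B7-H3 against isotype control ended without isotype control replicate 3 (-2.47, adjusted p = 0.118). The background-subtracted values are group means and carry no test.

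Muscle genes outside the 150 set limits to the pattern. In the combination against the isotype control, edgeR called 10 contractile genes higher and 8 lower, of 22 tested. The scaffold list had 1 higher and 9 lower of 15, the calcium list 2 and 12 of 16, and the energy list 6 and 2 of 11. Over all genes tested, 27.8% were higher and 29.5% lower, and the higher calls include members chosen by these levels. Pvalb, the calcium buffer of fast fibres, had 42 combination reads and Tcap, a titin cap protein, 32, below the 60 required, with scores of 1.48 and 0.82. The slow fibre genes Myh7 and Tnnt1 scored -2.54 and -1.40. None of the 16 myogenic regulators (0 of 5 with 60 combination reads) and none of the 11 neuromuscular junction genes (0 of 4) was chosen. The rule took 150 of 10669 genes, so lists this small could hold no member without differing from other genes. Nothing is read from their absence. Myod1 and Myog, the factors that start and complete muscle differentiation, each had 3 reads over the 3 combination libraries. When background was subtracted, 29 muscle list genes were in the fresh choice of 150, among them Myh2, Ryr1 and Actn3, which had scored -0.76, -0.80 and 0.33 before subtraction.

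A second set of muscle-related members was seen after the values were known. Cdh15, the M-cadherin of muscle precursor cells, ranked 20th with 143, 142 and 131 RPM in the combination, 64.4, 59.7 and 57.7 with anti-PD1, 62.1, 64.7 and 63.7 with anti-B7-H3 and 28.4, 17.9 and 20.4 in the isotype control. Cdh15 did not drop out with anti-B7-H3: it was higher there than in the isotype control (edgeR log2 fold change 0.73 ± 0.15 (SE), adjusted p = 1.78e-05), and higher with anti-PD1 (0.85 ± 0.15 (SE), adjusted p = 5.08e-06). Nes, the intermediate filament nestin, had 1154, 1193 and 1158 in the combination and 569, 420.0 and 489 in the isotype control. Its means were 785 with anti-B7-H3 and 773 with anti-PD1, so the combination had 1.49 times the next group. Tnnt2, the embryonic and cardiac troponin T, had 63.5, 59.2 and 63.4 in the combination and 17.9, 21.6 and 18.9 in the isotype control, with means of 41.6 with anti-B7-H3 and 42.9 with anti-PD1. Of the 16 genes on the muscle precursor list that these belong to, 4 were among the 150, and Myod1, Myf5, Pax7 and Myog were not.

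The interferon genes formed the other recognisable group. A list of 33 type I interferon response genes, drawn up after the members had been seen, had 32 genes with 60 or more combination reads, and 11 of them were members: Ifi44, Ifit3, Rsad2, Apol9a, Ifit3b, Rtp4, Ifit1, Isg15, Ifit2, Mx1 and Irf7. The 11, chosen for their excess in the combination, summed to 264 ± 8.74 RPM (SD, n = 3) in the combination, 150 ± 8.58 with anti-B7-H3, 111 ± 10.1 in the isotype control and 98.1 ± 8.94 with anti-PD1. The whole list of 33 differed less between the first 2 groups. Its mean sum was 974 RPM in the combination, 855 with anti-B7-H3, 419 with anti-PD1 and 396 in the isotype control. In the combination against anti-B7-H3, edgeR called 12 of the 33 higher and 3 lower, where 19.8% and 19.1% of all genes were. None of the 12 interferon gamma response genes listed was chosen, of which 10 had 60 or more combination reads. A list this small could hold no member without differing from other genes, so nothing is read from that absence. These 12 summed to 1797 to 1842 RPM in the combination and 2656 to 2717 with anti-B7-H3.

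Ifit3, Rsad2 and Isg15 are shown with their promoters because interferon genes are known for sites in which GAAA is repeated after any 2 bases. Each stretch is again the 160 bases before the RefSeq start on GRCm38.p6, on the gene's strand, and capitals mark such a pair on either strand (TTTC, any 2 bases, TTTC on the minus strand). They lie at chr19:34583369-34583528 (plus strand), chr12:26456453-26456612 (minus strand) and chr4:156200819-156200978 (minus strand).
Ifit3: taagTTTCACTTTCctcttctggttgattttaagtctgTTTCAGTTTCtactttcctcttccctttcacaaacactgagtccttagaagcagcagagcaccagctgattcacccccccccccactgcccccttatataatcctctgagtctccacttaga
Rsad2: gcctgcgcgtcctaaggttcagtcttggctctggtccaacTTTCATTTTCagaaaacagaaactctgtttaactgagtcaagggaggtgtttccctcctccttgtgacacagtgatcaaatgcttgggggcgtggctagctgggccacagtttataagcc
Isg15: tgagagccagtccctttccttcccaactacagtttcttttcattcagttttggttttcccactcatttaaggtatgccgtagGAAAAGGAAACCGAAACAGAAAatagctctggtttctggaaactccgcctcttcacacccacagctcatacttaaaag

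Ifi44, a cytoplasmic antiviral protein, had the highest score of the group at 1.43, with 10.02, 14.1 and 11.4 RPM in the combination, 2.81, 4.48 and 4.06 with anti-B7-H3, 2.64, 3.73 and 1.46 in the isotype control and 1.79, 1.49 and 1.58 with anti-PD1. Rsad2, the antiviral enzyme viperin, had 14.9, 16.2 and 16.3 in the combination, 8.68, 7.29 and 10.8 with anti-B7-H3, 3.97, 6.71 and 3.64 in the isotype control and 3.58, 5.23 and 3.56 with anti-PD1. Isg15, a ubiquitin-like protein joined to other proteins, had 21.6, 26.2 and 25.9 in the combination, 17.6, 18.5 and 14.3 with anti-B7-H3, 3.94, 6.35 and 6.32 with anti-PD1 and 3.31, 3.73 and 5.1 in the isotype control. By group means on library totals anti-B7-H3 took second place for all 3 genes, and combination libraries did not overlap those of anti-B7-H3. For Ifi44 the anti-B7-H3 libraries overlapped the isotype control. On TMM-scaled totals the isotype control took second place for Ifi44, with a mean of 4.175 against 3.506 with anti-B7-H3.

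Irf7, the regulator that amplifies interferon production, had 26.2, 31.7 and 33.8 RPM in the combination and 26, 18.2 and 21.7 with anti-B7-H3, so that the lowest combination library was barely above the highest anti-B7-H3 library. Irf7 had 5.37, 10.8 and 7.11 with anti-PD1 and 5.29, 7.46 and 7.28 in the isotype control. Apol9a, an interferon-induced apolipoprotein L gene with a near-identical copy, Apol9b, with which it can share reads, had 23.2, 29.2 and 18.1 in the combination, 16.9, 13.9 and 15.2 with anti-B7-H3, 2.06, 1.08 and 3.16 with anti-PD1 and 1.18, 3.17 and 1.62 in the isotype control. Both genes were well above background with anti-B7-H3 and in the combination and low in the other 2 groups.

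The Ifit genes had another second place. Ifit3, which binds other Ifit proteins, had 51.3, 53.3 and 56 RPM in the combination, 28.8, 22.8 and 28.2 in the isotype control, 17.1, 27.1 and 30.1 with anti-PD1 and 20.8, 18.3 and 18 with anti-B7-H3. Ifit2 had 44.9, 35.8 and 50.4 in the combination and 42.3, 22.4 and 27.7 in the isotype control, where the highest isotype control library exceeded the lowest combination library. On TMM-scaled totals Ifit1, Ifit2 and Ifit3b were highest in the isotype control, and Ifit3 stayed highest in the combination with a score of 0.20. Ifit3 and Ifit3b are close copies that can share reads.

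**Figure D4:**
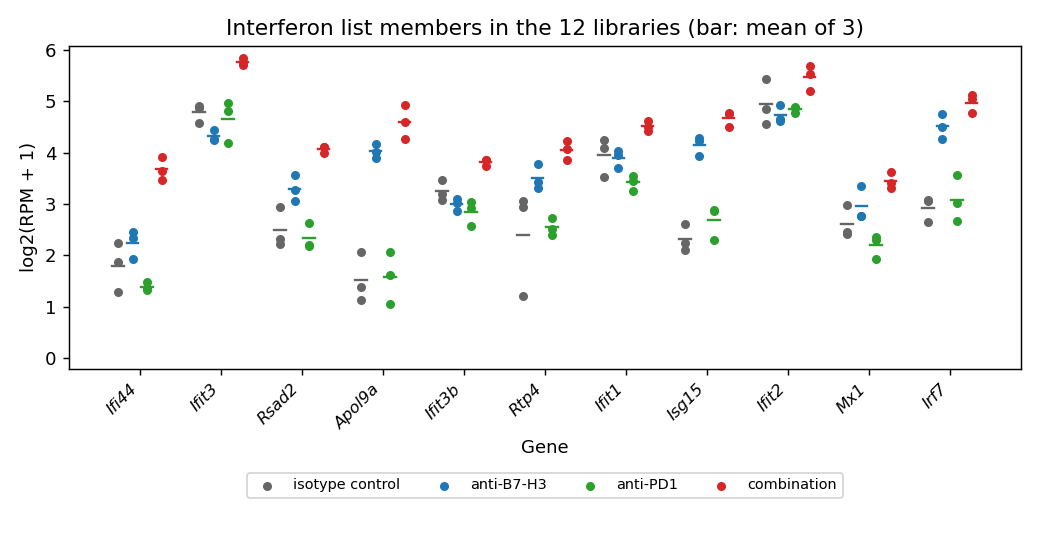
Level of the 11 interferon list genes in each of the 12 libraries, as log2(RPM + 1); each dot is a library, each short bar the mean of 3, and colours mark the 4 groups. Apol9a, Isg15 and Irf7 are high in both groups that received anti-B7-H3, whereas Ifit2 spreads widely in the isotype control and overlaps the combination.

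Between the single antibodies, 7 of the 11 interferon genes were higher with anti-B7-H3 than with anti-PD1 (Ifi44, Rsad2, Apol9a, Rtp4, Isg15, Mx1 and Irf7) and Ifit3 was lower, by edgeR's quasi-likelihood test at an adjusted p under 0.05, where 30.4% of all genes were higher and 31.6% lower. All 8 kept their direction on group means after background subtraction. Apol9a differed by 2.65 ± 0.31 (SE), adjusted p = 2.00e-11, Isg15 by 1.42 ± 0.24 (SE), adjusted p = 2.81e-07, and Irf7 by 1.32 ± 0.21 (SE), adjusted p = 1.57e-07 by edgeR on the log2 scale. The calls of Ifi44 and Mx1 ended with DESeq2's Wald test (adjusted p = 0.0756 and 0.0649). The Ifi44 call also ended without anti-B7-H3 replicate 2 or 3 or any anti-PD1 library (edgeR adjusted p = 0.0799 to 0.115), and the Mx1 call without anti-B7-H3 replicate 3 or any anti-PD1 library (0.0537 to 0.218). Of all 33 genes on the list, 24 were higher and 2 lower in this comparison, so the list as a whole held mostly genes that were higher with anti-B7-H3. Against the isotype control, 3 members were higher with anti-B7-H3 (Apol9a, Isg15 and Irf7) and 4 lower (Ifit3, Ifit3b, Ifit1 and Ifit2), while anti-PD1 gave 0 higher and 5 lower (the same 4 Ifit genes and Mx1). These counts stand beside 30.8% higher and 33.3% lower over all genes for anti-B7-H3, and 17.5 and 20.9% for anti-PD1. After background subtraction Ifit1 and Ifit3b turned in the anti-B7-H3 comparison, with group means of 8.84 and 2.62 RPM in the isotype control and 13.9 and 6.98 with anti-B7-H3, and Ifit3b and Mx1 turned in the anti-PD1 comparison. The Irf7 call against the isotype control ended without isotype control replicate 1 (0.73, adjusted p = 0.0528), and that of Ifit2 with anti-PD1 ended without isotype control replicate 1 (-0.52, adjusted p = 0.0566).

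Motif matches were counted in RefSeq promoters of 300 bases (250 before to 50 after the start), which were given for 107 of the 150 genes and for 8372 of the genes the rule could take. GAAA repeated after any 2 bases, searched on both strands, was in 8.41% of the members' promoters and 3.31% of all. Among interferon members it was in 6 of 9 (Ifit3, Rsad2, Apol9a, Ifit3b, Ifit1 and Isg15), and among the other genes of the interferon list in 8 of 17. TATAAA was in 10.3% against 6.89%, with 4 of 15 muscle genes (Myh4, Acta1, Myl1 and Myh1). CANNTG, the general form of an E box, was in 61.7% of both. The MEF2 site was in 4.67% against 1.06% (Myh4, Myh1 and Ttn among muscle genes) and the SRF CArG box in 4.67% against 1.3% (Myh4 and Acta1). TATAAA overlaps some MEF2 matches, and a match describes letters in the window only.

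Outside both groups, 122 members remained. Prl2c2, a proliferin hormone of the placental prolactin family, had 51.4, 52.6 and 52.8 RPM in the combination, 14.2, 10.7 and 17.2 in the isotype control, 10.3, 13.7 and 9.07 with anti-PD1 and 6.82, 8.71 and 6.49 with anti-B7-H3. Its near-identical neighbour Prl2c3 had 32.8, 21.1 and 26.2 in the combination and at most 11.8 elsewhere, and reads of the pair cannot be assigned securely to either. Slc40a1, the iron exporter ferroportin, had 20.4, 25.8 and 25.8 in the combination and at most 8.74 in any other library. Prl2c2 was lower with anti-B7-H3 than with anti-PD1 (edgeR log2 fold change -0.78 ± 0.23 (SE), adjusted p = 0.00238).

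Several members build or hold the extracellular matrix. Col27a1, a fibrillar collagen, had 203, 221 and 202 RPM in the combination, 85.9, 88.9 and 90.4 with anti-B7-H3, 85.2, 86.2 and 86.2 with anti-PD1 and 68.7, 64.4 and 89.6 in the isotype control. Col4a1 had 2367, 2360.0 and 2298 in the combination, 1563, 1572 and 1637 with anti-B7-H3, 1364, 1292 and 1392 with anti-PD1 and 969, 787 and 960.0 in the isotype control. Col4a2 had 1465, 1517 and 1523 in the combination and 1041, 1007 and 1028 with anti-B7-H3. These 2 chains of basement membrane collagen are among the best covered members, their combination libraries did not overlap the others, and their gene models overlap by 21 bases at their starts on opposite strands. They were the 2 members of 14 basement membrane genes listed after the members were seen. Htra1, a secreted protease, had 196, 184 and 203 in the combination, 139.7, 141 and 144 with anti-B7-H3, 54.1, 52.7 and 56.1 with anti-PD1 and 37, 19.6 and 28.4 in the isotype control, and was higher with anti-B7-H3 than with anti-PD1 (1.20 ± 0.08 (SE), adjusted p = 5.97e-21 by edgeR on the log2 scale).

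Genes of cell attachment and membranes made up a further share. Vcl, the adhesion protein vinculin, had 546, 542 and 563 RPM in the combination, 369, 349.9 and 375 with anti-PD1, 349.6, 362 and 357 with anti-B7-H3 and 206, 168 and 176 in the isotype control. Tes, a focal adhesion protein, had 216, 214 and 210.2 in the combination, 154, 151 and 148 with anti-PD1, 154, 152 and 154 with anti-B7-H3 and 68.5, 44 and 64.8 in the isotype control. Fblim1, Rock2 and Cfl2, from the same list of focal adhesion and actin genes drawn up after the members were seen, were members too. Both were higher with anti-PD1 than in the isotype control by edgeR, Vcl by 0.40 ± 0.06 (SE), adjusted p = 1.39e-07, and Tes by 0.75 ± 0.10 (SE), adjusted p = 1.25e-09. Ano6, a calcium-activated lipid scramblase, had 373, 391 and 398 in the combination and 214, 220.3 and 205 with anti-B7-H3. Cd109, a surface protein that binds TGF-beta, had 187, 186 and 188 in the combination and 124, 112 and 117 with anti-PD1.

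Signalling genes among the members included Cx3cl1, the chemokine fractalkine. It had 45.9, 52.7 and 52.3 RPM in the combination, 35.1, 30.2 and 25.5 with anti-B7-H3, 8.23, 14.2 and 8.3 with anti-PD1 and 2.64, 6.71 and 12.4 in the isotype control. Cx3cl1 was higher with anti-B7-H3 than with anti-PD1 (edgeR log2 fold change 1.38 ± 0.21 (SE), adjusted p = 7.24e-07) and than in the isotype control (1.32 ± 0.30 (SE), adjusted p = 0.000248). Il34, a ligand of the macrophage growth factor receptor Csf1r, had 34.2, 36.9 and 38.9 in the combination and 24, 25.5 and 29.2 with anti-B7-H3. Igf2r, the receptor that clears insulin-like growth factor 2, had 1128, 1121 and 1138 in the combination, 789, 804 and 789 with anti-B7-H3, 712, 669 and 711 with anti-PD1 and 367, 307 and 309.8 in the isotype control. Igf2r was higher than the isotype control with anti-B7-H3 (0.50 ± 0.05 (SE), adjusted p = 1.72e-13) and with anti-PD1 (0.49 ± 0.05 (SE), adjusted p = 3.67e-12) by edgeR.

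Stress genes were represented by 3 of 15 hypoxia response genes and 3 of 13 heat shock genes, both lists again drawn up after the members were seen. Ero1l, the oxidase of disulfide bond formation, had 481, 494 and 494 RPM in the combination, 322, 342 and 336 with anti-B7-H3, 250.2, 233 and 265 with anti-PD1 and 154, 119 and 149 in the isotype control. Vldlr, a lipoprotein receptor, had 249, 226 and 229 in the combination and 89.9, 54.5 and 83.8 in the isotype control, but its score over the next highest group was 0.49. Mgarp was the third hypoxia gene. Ero1l was higher with anti-B7-H3 than with anti-PD1 (0.24 ± 0.05 (SE), adjusted p = 4.31e-05 by edgeR on the log2 scale). Hsp90aa1, a chaperone, had 562, 578 and 559 in the combination and 406, 412 and 416 with anti-B7-H3. Hspa1a, an inducible chaperone, had 27.8, 25.9 and 25.8 in the combination and 19.6, 13.4 and 13.3 with anti-B7-H3, the next highest group by mean. Hspa1a had 22.5, 9.31 and 12.8 with anti-PD1 and 20.1, 9.2 and 10.2 in the isotype control. A single library in each of these other groups came closest to the combination.

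A few members rest on uneven reads. Acp2, a lysosomal phosphatase, had 0, 113 and 0 reads in the 3 combination libraries, Nupl1, a nuclear pore gene, had 50.4, 54.5 and 0, and Gm43064 had 0, 45.6 and 68.8. These were the 3 members with a combination library at 0, and Acp2 and Gm43064 were left out of the edgeR fit by its filter on low counts, which 148 members passed. Gm28043, at rank 5, had 29.7, 16.2 and 55 reads in the combination and 0, 23.2 and 0 with anti-B7-H3. In contrast the median member varied by a factor of 1.16 between its highest and lowest combination library, close to the 1.17 of all genes the rule could take.

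Over all 150 genes, second place went to anti-B7-H3 in 87, to anti-PD1 in 42 and to the isotype control in 21. On TMM-scaled totals the highest of the other 3 groups was the isotype control in 67, anti-PD1 in 45 and anti-B7-H3 in 38, and after background subtraction the isotype control took second place in 8. Among the 3797 genes highest in the combination on library totals, second place went to anti-B7-H3 in 64.8%, to anti-PD1 in 32.4% and to the isotype control in 2.77%. The rule capped the other 3 group means below the combination, which limits how far they could differ. It did not use their order, but nothing is read from member shares that lie below those of all genes. Between those groups, 21 members were higher and 32 lower with anti-B7-H3 than with anti-PD1 (14.2 and 21.6% of the 148 tested) by edgeR, where 30.4 and 31.6% of all 13478 genes were. With anti-B7-H3 against isotype control 22 were higher and 39 lower (14.9 and 26.4%, against 30.8 and 33.3% of all genes). With anti-PD1 against isotype control 17 were higher and 21 lower (11.5 and 14.2%, against 17.5 and 20.9%). The direction of 13 of the 39 lower calls (Col27a1, Ano6, Fez1, Cd109 and Col4a2 among them) reversed on library totals, as did 2 of the 21 (Col27a1 and Ano6) and 3 of the 32 (Tpm1, Nes and Tes), while every higher call kept its direction. On group means after background subtraction 27 of the 39, 11 of the 21 and 1 of the 32 lower calls turned, Myh4 was at 0 in both groups for 1 of the 39, and again every higher call kept its direction.

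**Figure D5:**
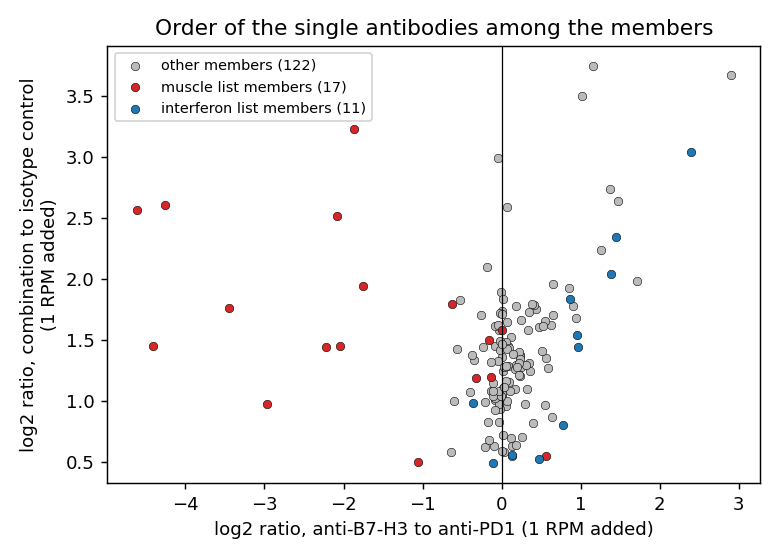
Log2 ratio of the combination to the isotype control (vertical axis) against the log2 ratio of anti-B7-H3 to anti-PD1 (horizontal axis) for the 150 genes, on group means with 1 RPM added; each point is a gene, coloured as muscle list, interferon list or neither. Most muscle genes lie left of 0, lower with anti-B7-H3, most interferon genes lie right of 0, and the other genes gather around 0.

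Further members belong to the 30 highest scores or to the largest changes between the other groups. Tdrd9, a helicase of the piRNA pathway, ranked 17th with 37.2, 30.7 and 31.5 RPM in the combination, 11.2, 13.4 and 14.6 in the isotype control, 15.3, 11.8 and 13 with anti-B7-H3 and 11.5, 7.09 and 7.11 with anti-PD1. Its edgeR log2 fold change for anti-PD1 against isotype control was -1.18 ± 0.28 (SE), adjusted p = 0.000344, a direction that turned after background subtraction. Klhl30, on the muscle precursor list, had 53.6, 53.4 and 59.9 in the combination and at most 33.5 elsewhere. The gene 4933434E20Rik had 12.5, 15.5 and 10.2 in the combination and 2.8, 2.91 and 11.8 in the isotype control, so its libraries overlapped. Gm49383 and Fam83h had at most 9.8 and 15 RPM in any library.

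Ccn5, a secreted matricellular protein, had 14.9, 9.3 and 10.6 RPM in the combination, 5.36, 7.84 and 7.85 with anti-B7-H3, 2.86, 1.87 and 2.37 with anti-PD1 and 1.32, 2.24 and 1.46 in the isotype control. Ccn5 was higher with anti-B7-H3 than with anti-PD1 (edgeR log2 fold change 1.36 ± 0.37 (SE), adjusted p = 0.000999) and than in the isotype control (1.29 ± 0.51 (SE), adjusted p = 0.0236), the second of which ended without isotype control replicate 1 or 3 (adjusted p = 0.123 and 0.0764). The gene 2900026A02Rik had 89.8, 99.3 and 88 in the combination, 66.7, 70.1 and 64.4 with anti-B7-H3, 18.3, 19 and 21.9 with anti-PD1 and 27.1, 19.4 and 21.1 in the isotype control, and was higher with anti-B7-H3 than with anti-PD1 (1.59 ± 0.12 (SE), adjusted p = 5.86e-19 by edgeR). Serpinb8, a serine protease inhibitor, was higher with anti-PD1 than in the isotype control (0.88 ± 0.25 (SE), adjusted p = 0.00323 by edgeR), at 26.1, 22.4 and 28.1 and 9.91, 10.4 and 7.28 RPM. Snrpg, a core protein of the spliceosome, was also higher there (0.77 ± 0.28 (SE), adjusted p = 0.0253 by edgeR), but this call ended without isotype control replicate 1 or 2 or anti-PD1 replicate 2 (adjusted p = 0.0759 to 0.105).

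The rule's own comparisons, fitted in the same way, called 89 members higher in the combination than in the isotype control (27.8% of all genes were called higher), 128 higher than with anti-B7-H3 (19.8% of all) and 107 higher than with anti-PD1 (23.1% of all), with 0 lower in any. Because these levels chose the genes, nothing is read from those counts. The median log2 ratio of members was 1.36 to the isotype control, 0.58 to anti-B7-H3 and 0.75 to anti-PD1 on library totals, beside 0.94, 0.05 and 0.28 over all genes the rule could take.

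The lists of other cell types contributed no member. None of the 11 macrophage, 14 fibroblast, 15 T cell, 15 endothelial, 18 adipocyte, 19 keratinocyte and hair or 13 smooth muscle and mural genes listed was a member, nor was any of 12 proliferation genes. In that order 11, 13, 3, 12, 7, 1 and 10 genes, and all 12 proliferation genes, had 60 or more combination reads. The rule took 150 of 10669 genes, so lists this small could hold no member without differing from other genes. Nothing is read from their absence. The macrophage genes summed to 4681 to 4690 RPM in the combination and 9122 to 9201 with anti-B7-H3, and the fibroblast genes to 17280 to 17460 and 25490 to 25900, so both lists had their highest sum with anti-B7-H3. The 9 mast cell genes listed held no member, and only 1 had 60 or more combination reads. They summed to 24.9 to 30.4 RPM in the combination and 59.2 to 67.0 with anti-PD1. However, Mcpt1, a mast cell protease that was on no list, was a member. Mcpt1 had 19.7, 19.98 and 22.2 in the combination, 14.7, 11.2 and 13.4 with anti-PD1, 11, 11.5 and 11.6 with anti-B7-H3 and 3.31, 3.73 and 5.1 in the isotype control, and was higher with anti-PD1 than in the isotype control (1.11 ± 0.34 (SE), adjusted p = 0.00649 by edgeR), a call that ended without isotype control replicate 1 (0.90, adjusted p = 0.0684). The antibody targets Cd276 and Pdcd1 were not members either. The part of cell composition in any member's level was not tested.

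The members were spread over the genome with few neighbours. Besides Myh1 and Myh4, Prl2c3 and Prl2c2, and Col4a1 and Col4a2, the pairs next to each other were Tnnt2 and Pkp1, a desmosome protein, on chromosome 1 and Ifit2 and Ifit3 on chromosome 19. The median coding length was 1266 bases against 1494 over all genes the rule could take, and the median number of combination reads was 340 against 341. At or below background were 38 members in the isotype control, 9 with anti-PD1 and 5 with anti-B7-H3, and in the combination background came to at most 6.71% of any member's reads.

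The mean profile of the 10 muscle members under 1 RPM with anti-B7-H3 was compared with other genes over the 12 libraries. Most like it were Ttn (Pearson r = 0.964), a muscle member outside that mean, Spc25, a kinetochore gene (0.930), Csn3, the milk protein kappa casein (0.915), Slitrk6 (0.914) and Klk8 (0.911). These correlations are descriptions over 12 libraries that share their depth and background within groups. Csn3, a member, had 50.4, 53 and 47.8 RPM in the combination, 35.5, 36.5 and 27.7 in the isotype control, 22.6, 37.7 and 34.8 with anti-PD1 and 17.3, 23.3 and 19.5 with anti-B7-H3. On TMM-scaled totals Csn3 was highest in the isotype control, and it was lower with anti-B7-H3 than with anti-PD1 (-0.84 ± 0.15 (SE), adjusted p = 3.20e-06 by edgeR on the log2 scale).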

How the data were processed

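Total RNA of tumours, in 12 libraries, was depleted of ribosomal RNA before sequencing, per the labels' protocols. The authors deposited estimated counts per transcript (with transcript length), and GRCm38 and FastQC 0.11.8 are named in the submitters' processing notes; the read assignment program and use of strand are not given in the sources used here. Of 58083 transcripts, 57473 matched GENCODE M21 and were summed to 22195 genes; lengths are mostly coding lengths (87.3% are multiples of 3). Groups followed the sample titles. Levels are RPM, reads per 1000000 of library totals without 12 satellite-like genes; library totals were 3593110 to 21298142 reads, and depth outside satellite-like genes sets the counting error. Summed counts were rounded and tested with edgeR 4.0.16 (R 4.3.3, TMM, filterByExpr, robust quasi-likelihood F test, 1 mean per group, all 12 libraries), adjusted over 13478 genes. The pipeline was tested on simulated data in which all groups had the same composition apart from the changed genes. That simulation does not cover the differences in satellite-like reads between these groups. Alternatives were DESeq2 1.42.0, other scalings, filters, added constants, background subtraction (libraries below background set to 0), a replicate block and each library left out. Replicate numbers did not pair the libraries. Named genes are the 30 highest scores, members of the fixed lists, those at the threshold and those with the 5 largest changes in each direction; further ones were named after their values were seen. Members and lists were chosen with earlier results of these data known, and the lists of interferon, hypoxia, heat shock, basement membrane, focal adhesion, muscle precursor and prolactin genes after the members were seen; the paired GAAA motif was added then. Promoters are from RefSeq (GRCm38.p6). Protein sequences are not used here. Counting intervals for ratios with 1 to 3 reads are exact at 95% and cover counting error only. Values for some genes are not reported here.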

Additional observations from a re-analysis of the deposited data

How the results depend on the processing

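Scaling mattered most. The 150 genes shared 94 with a choice on TMM-scaled totals, 93 with DESeq2 size factors and 75 after background subtraction; interferon genes chosen fell from 11 to 6 and 6 under the first 2, and muscle genes rose from 17 to 29 under the last. Scores of Csn3, Ifit1 and Ifit2 turned to -0.21, -0.23 and -0.28 (TMM) and -0.25, -0.26 and -0.32 (size factors). Without 1 library, 114 to 147 genes were shared, with 16 to 18 muscle and 9 to 11 interferon genes.

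Genes called rose under DESeq2's Wald test and without a filter on low counts: combination against isotype control from 7727 to 13860 and 15865, combination against anti-PD1 from 6271 to 9461 and 11406, anti-B7-H3 against isotype control from 8641 to 15112 and 16711, anti-PD1 against isotype control from 5164 to 7853 and 10021 (8566 with satellite-like genes left out), and anti-B7-H3 against anti-PD1 from 8356 to 13025 and 14594. The share of calls that were higher fell from 48.5 to 26.6 and 36.1%, 49.8 to 30.8 and 38.8%, 48.0 to 27.6 and 35.3%, 45.6 to 28.9% (Wald) and 49.0 to 30.9 and 35.5%. Members' median log2 fold changes moved without a filter and with satellite-like genes left out: 0.91 and 0.88 (combination against isotype control), 0.71 and 0.66 (against anti-PD1), and with reversed sign 0.18 and 0.10 (anti-B7-H3 against isotype control), 0.10 and 0.12 (anti-PD1 against isotype control, also 0.034 with only those groups fitted) and 0.029 without a filter (anti-B7-H3 against anti-PD1). The cause was not tested.

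Leaving out 1 library gave, in the order combination against isotype control, anti-B7-H3 and anti-PD1, then anti-B7-H3 and anti-PD1 against isotype control and anti-B7-H3 against anti-PD1: members called 79 to 93, 111 to 134, 96 to 117, 51 to 66, 30 to 46 and 44 to 58; genes called 6634 to 8605, 4575 to 5357, 5252 to 6832, 7723 to 9449, 3976 to 6028 and 7476 to 8969; medians 0.58 to 0.72, 0.58 to 0.61, 0.51 to 0.61, -0.16 to -0.015, -0.099 to -0.0002 and -0.14 to -0.075. Replicate numbers did not pair libraries (correlations -0.0361 to 0.0435 for same-numbered libraries); with the number as a replicate block, members called were 89, 128, 108, 60, 38 and 50 in that order, and the calls of Des and Ifi44 for anti-B7-H3 against anti-PD1 ended (adjusted p = 0.0505 and, rounded, 0.05). Of 1270 recomputed values of 71 gene comparisons named, 1213 kept call and direction, 57 lost the call and 0 reversed under the fitted alternatives; the sign of group means after background subtraction, chosen after seeing the data and not tested, turned 27 of 39, 11 of 21 and 1 of 32 lower calls in the last 3 comparisons. Depth outside satellite-like genes, lowest in the isotype control, limits what low members can show there.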

Other observations

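Immunoglobulin genes lay outside the rule, which took protein-coding genes only, and 4 of 49 genes of other types with 60 or more combination reads had scores at or above the last member. Ighg2b, the constant region of IgG2b, had a score of 2.6, with 109, 105 and 150 reads in the combination, 20, 20 and 21 with anti-B7-H3, 8.3, 10 and 3.8 with anti-PD1 and 9.6, 5 and 3 in the isotype control. The variable genes Igkv4-70, Igkv16-104 and Ighv1-72 scored 1.72, 0.88 and 0.81. Ighv1-72 had a mean of 29.97 RPM in the combination and 16.7 with anti-B7-H3, and under 2 in the other groups. None of the 8 B and plasma cell genes listed was among the 150, and only 1 had 60 or more combination reads. Those 8 genes summed to 1231 to 1268 RPM in the combination and 7095 to 7220 with anti-B7-H3.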
